A study of Mus musculus with 5 samples.

Results

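The interferon-stimulated genes described here were Isg15, Ifit1, Ifit2, Ifit3, Irf7, Ifi44, Rsad2, Usp18 and Bst2, 9 of the 31053 genes listed in the deposited matrices. They were chosen by name as a set of well-known targets of interferon, with earlier results of these data known. Each was measured in the liver of C57BL/6J mice in 2 classes of barcodes. Hepatocytes were barcodes with at least 5000 unique molecular identifiers (UMIs, single captured RNA molecules), 10 to 30% of them from mitochondrial genes, and at least 1% from Alb, Apoa1 and Ttr. Leukocytes had at least 1000 UMIs, at least 500 genes, under 10% mitochondrial UMIs and at least 3 UMIs of Ptprc, Coro1a and Laptm5. The rule gave 5691 hepatocytes and 3651 leukocytes.

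There were 5 single-cell libraries, 1 per group, made with a 10x v3 kit after a perfusion in steps and a dead-cell removal step. One library came from mice at postnatal day 14 (P14), another served as adult control, and the remaining 3 were taken 24 h, 48 h or 96 h after surgery. The operation, partial hepatectomy (PHx), removes part of the liver so that the rest regrows, and was done at an age of 8 weeks. The number and sex of the animals were not given in the sources used here. The treatment text counts the adult control among the hepatectomised samples, whereas its title and source name call it a control, and it was taken as the control. The description of the adult control carries the code L002 and those of the other 4 libraries L001, so the control cannot be told apart from what the code stands for. With 1 library per group no test between groups was possible, and every interval below is an exact 95% interval that covers counting error only. All ratios share the adult control as their denominator.

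The hepatocytes numbered 2106 in P14 and 925 in the adult control, with 1170, 719 and 771 in the PHx libraries in order of time, with median depths from 18527 to 38922.5 UMIs. The leukocytes numbered 252, 976, 592, 1166 and 665 in the same order, with medians from 4632 to 8560 UMIs. Empty droplets held between 290 UMIs (48 h) and 1328 UMIs (adult control) of free RNA on average. Of the 9342 barcodes in both classes, 11 occurred in more than 1 library. Leukocyte genes were also found among the hepatocytes: between 5.64% (24 h) and 25.5% (48 h) of them had a UMI of Ptprc, Coro1a or Laptm5, and the summed level of 8 neutrophil markers in hepatocytes ranged from 11.6 CPM (UMIs of a gene per 1000000 UMIs of the class, without mitochondrial genes) in the adult control to 198 CPM at 48 h. The part of these transcripts in the results below was not tested beyond the values given.

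Interferons are secreted proteins that warn cells of infection. Type I interferons bind the receptor made of Ifnar1 and Ifnar2, the kinases Jak1 and Tyk2 pass the signal on, and a complex that contains Stat2 and Irf9 binds interferon-stimulated response elements in promoters. Type III interferons use the receptor Ifnlr1 and Il10rb with the same downstream complex, and interferon gamma acts through the receptor chains Ifngr1 and Ifngr2. In the liver both hepatocytes and resident immune cells can respond, and plasmacytoid dendritic cells are known as strong producers of type I interferon. The genes measured here act at different points. Isg15 is a ubiquitin-like protein that is attached to other proteins, Ifit1, Ifit2 and Ifit3 are RNA-binding antiviral proteins, and Rsad2 (viperin) is a radical SAM enzyme that makes a chain-terminating nucleotide. Bst2 (tetherin) holds budding virions at the cell surface, and Ifi44 is an interferon-induced cytoplasmic protein. Irf7 is the transcription factor that amplifies type I interferon production, and Usp18 removes Isg15 from proteins and dampens signalling at Ifnar2.

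In GENCODE M21 coordinates (GRCm38, the assembly also called mm10), Isg15 lies at chr4:156199424-156200818 on the minus strand, Irf7 at chr7:141262706-141266481 on the minus strand, Rsad2 at chr12:26442746-26456452 on the minus strand, Usp18 at chr6:121245906-121270917 on the plus strand, Bst2 at chr8:71534255-71537456 on the minus strand and Ifi44 at chr3:151730922-151749960 on the minus strand. Ifit2 (chr19:34550694-34576419), Ifit3 (chr19:34583531-34588731) and Ifit1 (chr19:34640871-34650009) lie together on the plus strand of chromosome 19, within 99.32 kb. All 9 are protein-coding. Ifit3 has a near copy, Ifit3b, in the same stretch: 51.2% of the 50-base windows of the Ifit3 transcript also occur in Ifit3b. Reads from the shared sequence cannot be told apart between Ifit3 and Ifit3b, so Ifit3 counts are uncertain. For Ifit1 the share with Ifit1bl2 is 7.06%, for Isg15 the share with AC151275.1 is 3.96%, and for the other 6 genes no window was shared.

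The promoters show a letter pattern of the interferon response element in some of these genes and not in others. RefSeq promoter windows (GRCm38.p6, 250 bases before to 50 bases after a start) were found for 8 of the 9 genes; Usp18 had no entry. They were searched on both strands, with overlapping matches counted, for a pair of GAAA tetramers with 2 bases between them (GAAANNGAAA). The pattern was in a window of 5 of the 8 genes, against 3.99% of all 27025 genes in the table (3.44% of its 32851 windows). It was not particular to these genes. Among the pathway lists used further below it was in 10 of 16 interferon gamma targets and 12 of 27 other type I targets. It was also in 4 of 10 ligands, 3 of 8 sensors and 1 of 10 receptor and signalling genes. Below are 150 bases of each of the 5, from 170 to 21 bases before the start, read on the strand of the gene, with capitals for the match (TTTC letters are matches on the other strand).

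Isg15 (chr4:156200839-156200988, minus strand): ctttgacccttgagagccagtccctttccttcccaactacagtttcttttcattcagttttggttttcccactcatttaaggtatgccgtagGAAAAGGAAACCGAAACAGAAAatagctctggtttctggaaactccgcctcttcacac
Ifit1 (chr19:34640719-34640868, plus strand): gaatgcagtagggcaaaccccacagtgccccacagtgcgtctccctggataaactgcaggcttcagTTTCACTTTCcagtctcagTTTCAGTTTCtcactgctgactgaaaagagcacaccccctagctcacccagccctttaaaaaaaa
Ifit3 (chr19:34583359-34583508, plus strand): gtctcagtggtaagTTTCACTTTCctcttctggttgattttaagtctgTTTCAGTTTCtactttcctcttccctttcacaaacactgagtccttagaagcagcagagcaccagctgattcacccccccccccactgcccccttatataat
Rsad2 (chr12:26456473-26456622, minus strand): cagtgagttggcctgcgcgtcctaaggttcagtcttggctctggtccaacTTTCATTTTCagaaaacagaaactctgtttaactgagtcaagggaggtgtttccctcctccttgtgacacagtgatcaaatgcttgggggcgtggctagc
Bst2 (chr8:71537493-71537642, minus strand): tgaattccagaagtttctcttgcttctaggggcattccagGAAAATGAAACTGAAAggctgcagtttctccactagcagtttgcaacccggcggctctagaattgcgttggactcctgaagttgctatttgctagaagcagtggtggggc

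Isg15 held 3 overlapping matches, beginning 78, 72 and 66 bases before the start, and Bst2 held 2 overlapping ones at 130 and 124 bases. Ifit1 and Ifit3 each held 2 separate matches, Ifit1 at 104 and 85 bases and Ifit3 at 156 and 122 bases before the start. Rsad2 held 1, at 120 bases. No match was found in the windows of Ifit2, Irf7 and Ifi44, which says only that these letters are not in those windows.

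In hepatocytes the genes other than Bst2 had a lower summed level in P14 and at 24 h and 48 h than in the adult control, and a level near it at 96 h. Levels are CPM, counted per molecule and not per length, so they are compared between libraries and not between genes. Bst2 gave 2625 of the 3482 UMIs of the 9 genes in the adult control and sets any sum that holds it. The sum of the other 8 genes was 39.0 CPM in P14 and 64.4 in the control, and after PHx 44.4 (24 h), 38.4 (48 h) and 70.8 (96 h). Its interval did not include 0 in any comparison with the adult control, with log2 ratios of -0.72 (-0.83 to -0.61) for P14, -0.54 (-0.67 to -0.40) for 24 h, -0.74 (-0.89 to -0.60) for 48 h and 0.14 (0.0038 to 0.27) for 96 h. These ratios and those of single genes below are without a pseudocount. All 4 share a denominator in which 1 control hepatocyte held 128 of 857 UMIs of the 8 genes. Without the hepatocytes with at least 20 UMIs of these genes, described below, the sum was 32.35 CPM in P14 and 54.78 in the control. After PHx it was then 42.91 (24 h), 38.4 (48 h) and 63.76 (96 h).

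Irf7, the amplifying transcription factor, differed most in P14. Its level in hepatocytes was 4.72 CPM in P14 and 27.5 in the control, and after PHx 18.0 (24 h), 12 (48 h) and 20.98 (96 h). The adult control was highest and the P14 library lowest, and the intervals of those levels did not overlap those of any other library. The log2 ratio was -2.54 (-2.76 to -2.32) in P14 and -1.20 (-1.43 to -0.96) at 48 h. These UMIs were spread over many cells: in the adult control 366 UMIs lay in 273 of 925 hepatocytes, and no cell held more than 6.

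Usp18, the negative regulator, was highest in P14. Its level was 20.98 CPM in P14 and 13.1 in the control, and after PHx 10.2 (24 h), 12.3 (48 h) and 16.1 (96 h). The P14 level was separate from the rest, and the other 4 overlapped with their neighbours in the order of levels. The log2 ratio was 0.68 (0.45 to 0.92) in P14 and -0.36 (-0.66 to -0.06) at 24 h, and at 48 h the interval, -0.37 to 0.20, included 0. At an equal depth of 5000 UMIs per cell a Usp18 UMI was seen in 9.07% of P14 hepatocytes and in 3.42 to 5.19% of those of the other 4 libraries (43.0% and 14.9 to 27.1% without thinning).

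Ifi44 stood out at 96 h. Its level was 1.42 CPM in P14 and 2.63 in the control, and after PHx 4.10 (24 h), 1.34 (48 h) and 11.01 (96 h), so the 96 h library was above all others. The log2 ratio at 96 h was 2.07 (1.53 to 2.64). As with Irf7, many cells contributed: 120 of 771 hepatocytes (15.6%) had an Ifi44 UMI at 96 h against 31 of 925 (3.35%) in the adult control, or 4.15% against 0.757% at equal depth, and without the cell richest in Ifi44 the level at 96 h was 10.6 CPM.

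Bst2, the virion tether, was lowest in P14 and highest at 96 h. Its level was 106 CPM in P14 and 197 in the control, and after PHx 125 (24 h), 170 (48 h) and 250 (96 h), and all 5 intervals were separate. The log2 ratio was -0.90 (-0.96 to -0.83) for P14, -0.65 (-0.73 to -0.57) for 24 h, -0.21 (-0.29 to -0.14) for 48 h and 0.34 (0.27 to 0.41) for 96 h. Between 75.8% (24 h) and 95.6% (96 h) of hepatocytes had a Bst2 UMI, and at an equal depth of 5000 UMIs 34.5% did in P14, 51.1% in the control and 33.8%, 48.8% and 57.9% in the PHx libraries in order of time. Free RNA would account for 1.37% (48 h) to 8.64% (control) of these UMIs.

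The genes of the antiviral proteins were sparse in hepatocytes. Ifit1 stood at 3.08 CPM in P14 and 8.56 in the control, and after PHx 4.82 (24 h), 5.14 (48 h) and 11.01 (96 h), lowest in P14 (log2 ratio -1.47, -1.81 to -1.13) and with overlapping intervals in the adult control and at 96 h. Isg15, the ubiquitin-like modifier, stayed between 3.38 CPM (adult control) and 5.43 CPM (96 h), and no neighbours in the order of its 5 levels had separate intervals, although its log2 ratio at 96 h was 0.68 (0.13 to 1.25). Free RNA would account for 43.9% of the Isg15 UMIs in the control but 2.99% in P14 and 4.23% at 48 h, and with it subtracted the log2 ratios, with 1 CPM added, were 0.51 in P14 and 0.75 at 48 h in place of 0.0192 and 0.28. Ifit3 lay between 0.871 CPM (24 h) and 2.53 CPM (96 h), and its levels at 24 h and 48 h were separate from those of P14 and 96 h. Few cells carried these higher levels. In P14 the 22 hepatocytes richest in Ifit3 held 72.3% of its 141 UMIs, and at 96 h the 8 richest held 55.9% of 34. Ifit2 lay between 0.225 CPM (adult control, 3 UMIs) and 0.821 CPM (P14). The Rsad2 level was 2.38 CPM in P14 and 7.28 in the control, and after PHx 1.69 (24 h), 1.58 (48 h) and 3.27 (96 h), with log2 ratios of -2.11 (-2.72 to -1.52) for 24 h and -2.20 (-2.82 to -1.62) for 48 h. A single cell decided that result. Of the 97 Rsad2 UMIs of the adult control, 77 came from 1 hepatocyte, without which its level was 1.502 CPM. With the richest cell of each library left out, P14 stood at 1.502 CPM as well and the PHx libraries at 1.59, 1.44 and 2.75 CPM.

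**Figure D1:**
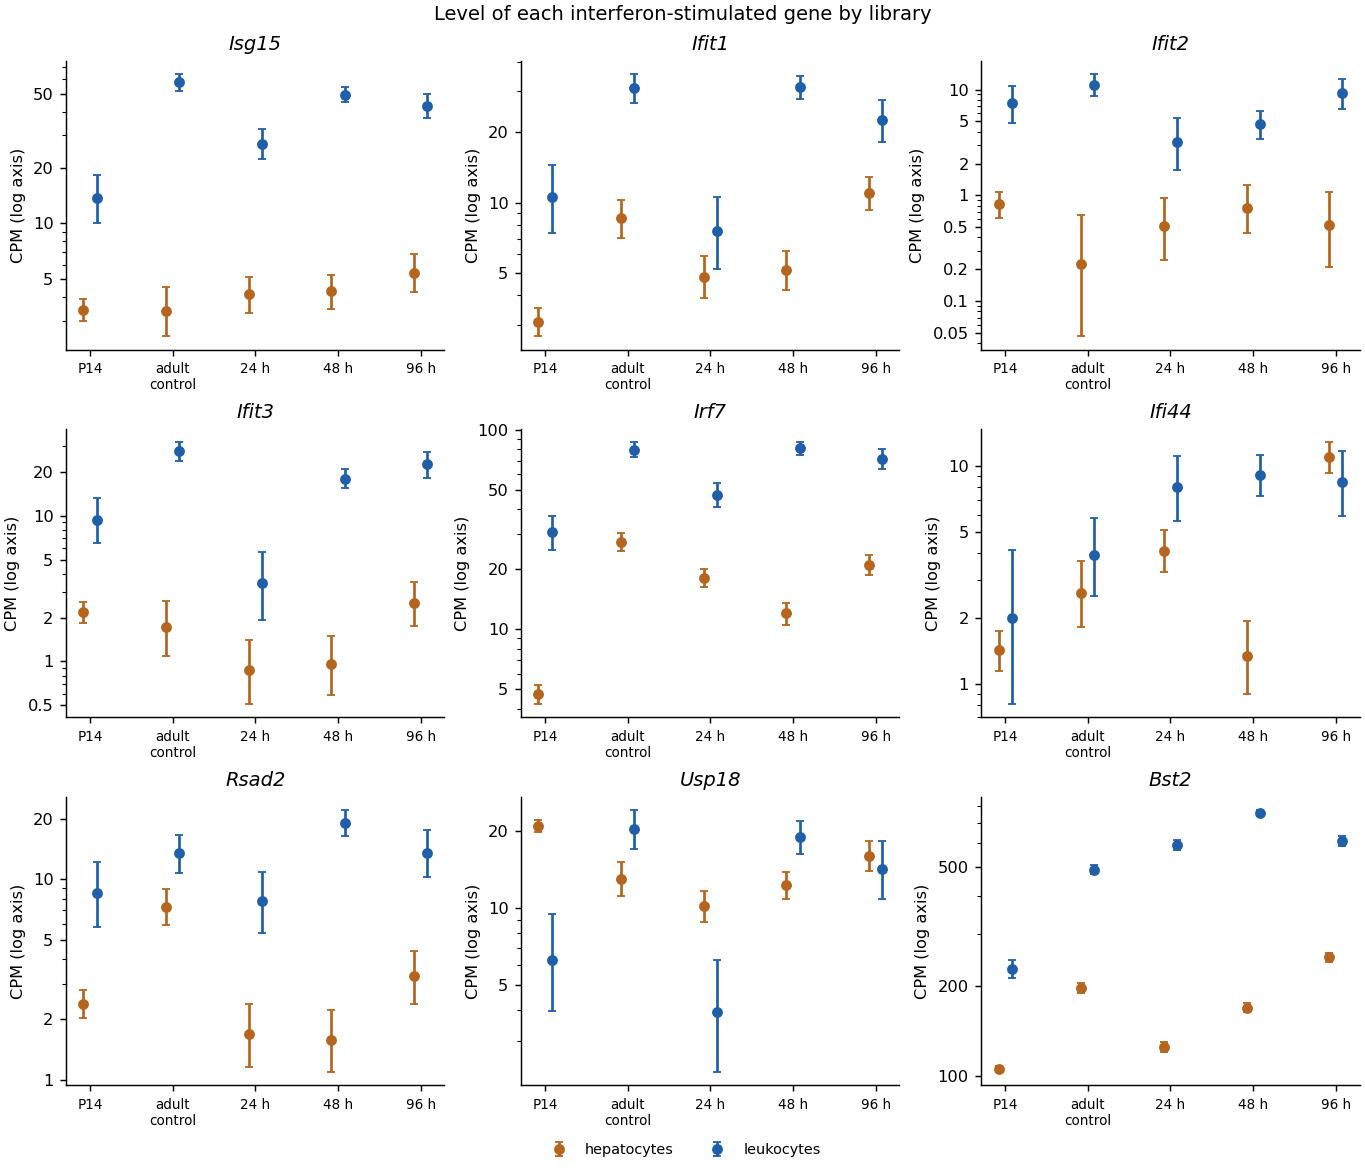
Level of each of the 9 genes in hepatocytes (brown) and leukocytes (blue) of the 5 libraries, in CPM on a log axis; points are library values and bars exact 95% Poisson intervals. Irf7 in hepatocytes was lowest in P14 (4.72 CPM), Ifi44 in hepatocytes highest at 96 h (11.01 CPM), and leukocyte points lay above hepatocyte points in all 5 libraries for 7 genes.

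To set these values against all genes, a gene was counted as at least 2-fold higher or lower when log2((CPM + 1)/(CPM + 1)) over the adult control was at least 1 or at most -1, among genes that reached 5 CPM in one of the libraries compared. In P14 hepatocytes, 5 of the 9 genes passed this filter and 3 were at least 2-fold lower (Irf7, Ifit1 and Rsad2), against 13.8% of 9011 genes, and 0 were higher against 7.89%. All 3 passed only through their level in the adult control, and Rsad2 was no longer 2-fold lower without the cell described above. At 24 h, 5 passed, Rsad2 was lower (background 7.13%) and 0 were higher (8.51%). At 48 h, 5 passed, Irf7 and Rsad2 were lower (7.63%) and 0 were higher (8.3%). Rsad2 passed only through the control at both times. At 96 h, 7 passed, Ifi44 was higher (4.07%) and 0 were lower (1.88%), and Ifi44 passed only through its level at 96 h. The median log2 ratio of the 9 genes was -0.58, -0.54, -0.48 and 0.33 in P14 and at the 3 times after PHx, and that of all tested genes -0.26, -0.0009, -0.08 and 0.04. The sum of 8 was lower in hepatocytes than among free RNA in every library: in empty droplets it was 50.8, 105, 63.8, 64.1 and 101 CPM in P14, the adult control and at 24, 48 and 96 h. At an equal depth of 5000 UMIs a UMI of the 8 genes was seen in 13.4% of P14 hepatocytes, 18.05% of the control's and 14.96%, 12.8% and 19.8% of those of the PHx libraries in order of time. From the UMIs per empty droplet, free RNA would account for 1.92%, 14.98%, 5.72%, 1.63% and 6.35% of the hepatocytes' UMIs of the 8 genes.

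A few hepatocytes carried these genes at high counts and in combination. At least 20 UMIs of the 8 genes without Bst2 were found in 11 of 5691 hepatocytes (0.193%), and these cells held 694 of the 5996 UMIs (11.6%). The limit of 20 was chosen after the counts were seen; the lowest cell inside had 21 UMIs, the highest outside 18, and 11 further cells had 10 to 19. By library there were 6 in P14 and 1 in the control, and after PHx 1 (24 h), 0 (48 h) and 3 (96 h). A count of 0 in 719 cells and of 6 in 2106 leaves no order between libraries that can be read from so few cells.

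**Figure D2:**
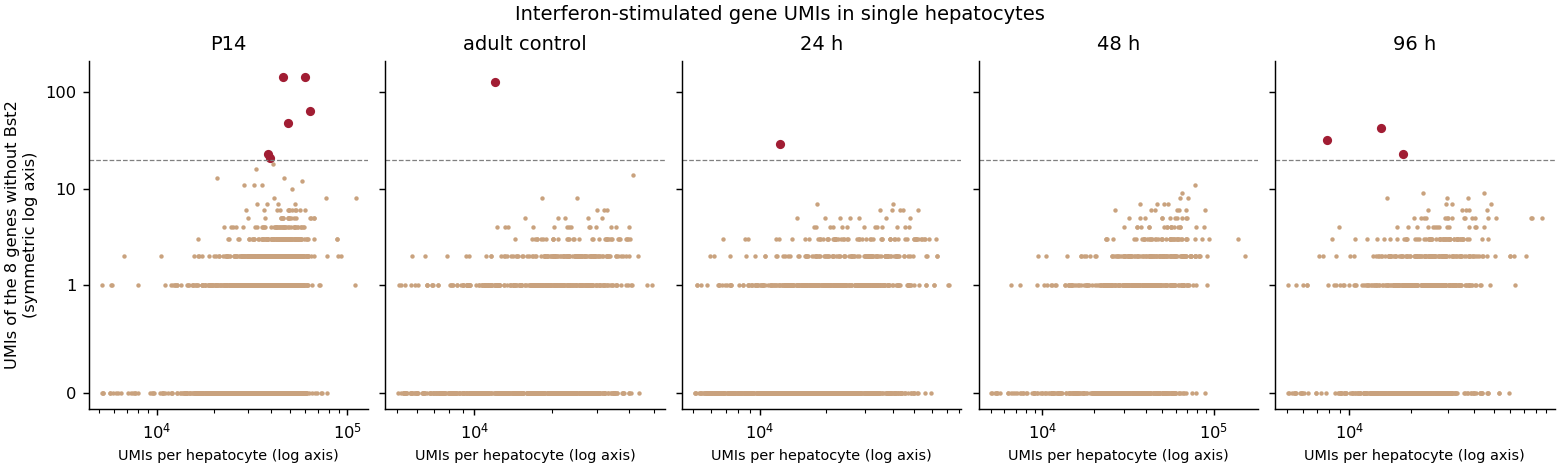
UMIs of the 8 genes without Bst2 in each hepatocyte (symmetric log axis) against the UMIs of that cell (log axis), by library; the dashed line marks 20 UMIs and dark red points the 11 cells at or above it. Most cells held 0 to 2 UMIs, whereas the highest cells held 143 (P14) and 128 (adult control).

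The adult control's cell had 12009 UMIs in all and 128 of the 8 genes: 77 of Rsad2, 34 of Ifit1, 10 of Ifit3, 3 of Usp18 and 1 each of Isg15, Ifit2, Irf7 and Ifi44. Rsad2 was also the leading gene of the 2 richest P14 cells, with 40 of 143 and 57 of 142 UMIs, although Ifit1 gave 39 UMIs in the former and only 3 in the latter. At 96 h, 1 cell had 33 UMIs of Ifit1 and 0 of Isg15, Ifit2, Ifit3 and Irf7. The cells thus differed in which genes they held. Summed over the 11 cells, the Rsad2 level was 729 CPM against 1.13 in the other hepatocytes, Ifit1 640 against 3.62, Ifit3 361 against 0.989 and Isg15 265 against 3.30, while Irf7 was 99.7 against 11.6 and Usp18 162 against 16.4. These 8 levels are given as a description, since the cells were picked by them.

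Some genes that had no part in picking the cells were high in them as well, and others were not seen there. Bst2 was 251 CPM in the 11 cells and 143 in the rest, with 0 UMIs in the adult control's cell. Of other interferon targets, chosen after their values were seen, Ifit3b stood at 114 against 0.167 CPM, Mx1, an antiviral dynamin-like GTPase, at 79.1 against 0.183, Oasl2 at 65.3 against 0.304, Cmpk2, the nucleotide kinase gene beside Rsad2, at 196 against 1.26 and the chemokine Cxcl10 at 162 against 2.13. Ifit3b is not independent of the picking, because it shares transcript sequence with Ifit3, by which the cells were picked in part. Of the interferon gamma-inducible GTPases, Igtp stood at 196 against 18.1, Gbp7 at 196 against 19.7 and Iigp1 at 1533 against 354 CPM, whereas Gbp4 had 0 UMIs in the 11 cells. Oas2, Oas3, Isg20, Ifi203, Ifi204, Ifi27l2a, Ifit1bl2, Sp100, Phf11b, Tgtp2 and Ciita also had 0 UMIs in the 11 cells, which hold few UMIs in all, so low levels were not detectable. A list of 35 other type I targets, in which Ifitm3 gave most UMIs (358 in the 11 cells), summed to 2583 CPM in the rich cells against 895 in the rest in P14, 5635 against 1268 in the adult control, 3139 against 1652 at 24 h and 4045 against 1640 at 96 h. Cxcl10 was seen in 3 of the 11 cells, with 37 UMIs in the adult control's. Leukocyte-gene UMIs were at 0 in 10 of the 11 cells, all 8 endothelial markers were at 0 in all 11, the 24 h cell had 1 UMI of a monocyte or macrophage marker and the other 10 had none, and Alb, Apoa1 and Ttr made up 3.31 to 15.2% of their UMIs.

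**Figure D3:**
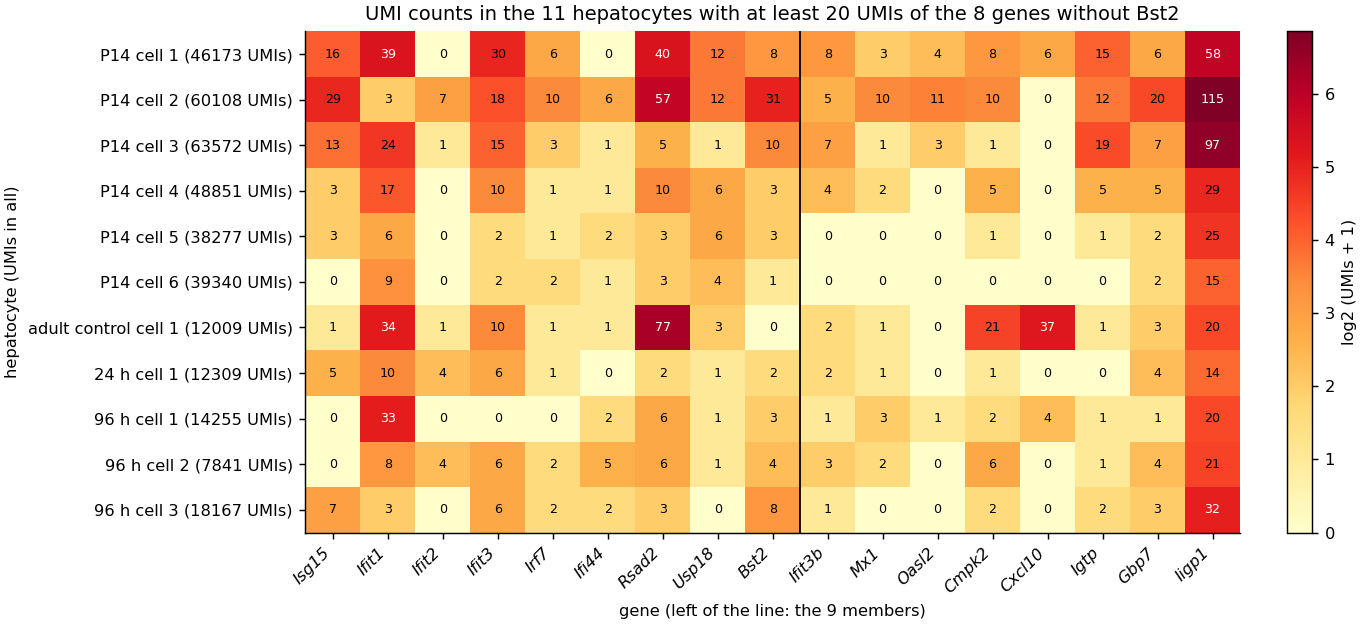
UMI counts (numbers; colour is log2(UMIs + 1)) of the 9 genes and of 8 other interferon targets in the 11 hepatocytes with at least 20 UMIs, 1 row per cell with its UMI total. Rsad2 reached 77 in the adult control's cell, Ifit1 had at least 1 UMI in all 11 cells, and Iigp1 was above 10 in each.

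Leukocytes had more of these transcripts than hepatocytes. In all 5 libraries the level was higher in leukocytes for Isg15 (3.99-fold to 17.0-fold), Ifit1 (1.57-fold to 6.08-fold), Ifit2 (6.11-fold to 49.2-fold), Ifit3 (3.95-fold to 18.8-fold), Irf7 (2.62-fold to 6.72-fold), Rsad2 (1.84-fold to 12.04-fold) and Bst2 (2.168-fold to 4.72-fold), with intervals of the ratio above 1 in every library. The lowest Rsad2 ratio is that of the adult control, 13.4 against 7.28 CPM, where the hepatocyte level was 1.502 CPM without its richest cell. These ratios pool the leukocyte classes described below, and not every class lay above hepatocytes. Rsad2 in T or NK-like cells was 1.51, 6.44, 0.82, 5.80 and 2.82 CPM in P14, the control and at 24, 48 and 96 h. B-like cells had 1.96, 4.67, 0, 6.73 and 1.73 CPM in that order, and hepatocytes 2.385, 7.28, 1.69, 1.58 and 3.27 CPM. Ifit1 in B-like cells was 0, 7.48, 2.12, 6.73 and 9.51 CPM, against 3.08, 8.56, 4.82, 5.14 and 11.01 CPM in hepatocytes. For Bst2 the leukocyte classes differed as well. Plasmacytoid dendritic-like cells stood at 4150 to 4807 CPM outside P14. In P14, the control and at 24, 48 and 96 h, hepatocytes had 106, 197, 125, 170 and 250 CPM. T or NK-like cells had 81.6, 183, 145, 163 and 184.5 CPM in that order. B-like cells had 57.6, 173, 212, 165 and 169.5 CPM, and neutrophil-like cells 37.7, 378, 25.2, 21.5 and 87.0 CPM. Ifi44 was higher with an interval above 1 at 24 h and 48 h only. In P14 (1.40-fold) and the control (1.49-fold) the interval of its ratio included equality. At 96 h its leukocyte level was 0.769 of the hepatocyte level, also with an interval that included equality. Usp18 was the exception. It was higher in leukocytes in the adult control (1.57-fold) and at 48 h (1.54-fold), and its leukocyte level was 0.299 of the hepatocyte level in P14 and 0.382 of it at 24 h.

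Leukocytes of P14 and of 24 h were low in most of the 8 genes, and those of 48 h and 96 h were nearer to the adult control. The sum of 8 was 88.5 CPM in P14 and 244 in the control, and after PHx 108 (24 h), 231 (48 h) and 205 (96 h). The P14 and 24 h libraries lay apart from the other 3, with log2 ratios of -1.46 (-1.64 to -1.29) and -1.18 (-1.33 to -1.03), the 48 h ratio of -0.08 (-0.17 to 0.02) included 0, and the 96 h ratio was -0.25 (-0.38 to -0.13). Without the leukocytes with at least 20 UMIs of these genes, the log2 ratio at 24 h, with 1 CPM added, was -0.86 in place of -1.17. Share of cells followed in part: at an equal depth of 1000 UMIs, a UMI of the 8 genes was seen in 3.97% of P14 leukocytes, 13.5% of the adult control, and 10.47%, 15.5% and 13.1% at 24, 48 and 96 h (33.7%, 51.4%, 33.6%, 47.3% and 44.1% without thinning). Free RNA would account for between 0.974% (48 h) and 8.66% (adult control) of the leukocytes' UMIs of the 8 genes. No cell class is known to lack them, so no share of cells could serve as background.

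Ifit3 and Usp18 were lowest at 24 h, Usp18 with an interval that overlapped that of P14. Of the 33 Ifit3 UMIs of P14 leukocytes, 15 came from 1 cell. Without it the P14 level of Ifit3 was 5.14 CPM, inside the 24 h interval of 1.92 to 5.67 CPM. The Ifit3 level was 9.42 CPM in P14 and 27.6 in the control, and after PHx 3.44 (24 h), 18.0 (48 h) and 22.5 (96 h), 8.04-fold lower at 24 h than in the control (log2 ratio -3.01, -3.88 to -2.25). Its copy Ifit3b stood at 1.15 CPM at 24 h and 7.18 CPM in the control. Usp18 was 6.28, 20.5, 3.90, 18.97 and 14.3 CPM in the same order, 5.25-fold lower at 24 h. Ifit1 was 10.6, 30.9, 7.56, 31.2 and 22.5 CPM, low in P14 and at 24 h and alike in the control and at 48 h within counting error.

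Isg15 was lowest in P14, with 13.7 CPM in P14 and 57.5 in the control, and after PHx 26.8 (24 h), 49.5 (48 h) and 43.1 (96 h) (P14 log2 ratio -2.07, -2.53 to -1.63). Irf7 was 30.6, 79.3, 47.2, 80.6 and 71.4 CPM in the same order, with the P14 and 24 h levels each separate from the rest. Ifit2 stood at 7.43, 11.1, 3.21, 4.69 and 9.20 CPM, and Rsad2 at 8.57, 13.4, 7.79, 19.1 and 13.6 CPM, with overlapping intervals between neighbours in the order of levels. Ifi44 and Bst2 departed from the others. Ifi44 was 2.00, 3.90, 8.02, 9.17 and 8.47 CPM, higher at all 3 times after PHx than in the control (log2 ratios 1.04, 1.23 and 1.12, intervals above 0). These values pool leukocyte classes that differed in Ifi44, as given below. Bst2 was 229, 490, 591, 757 and 611 CPM, lowest in P14 and highest at 48 h.

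**Figure D4:**
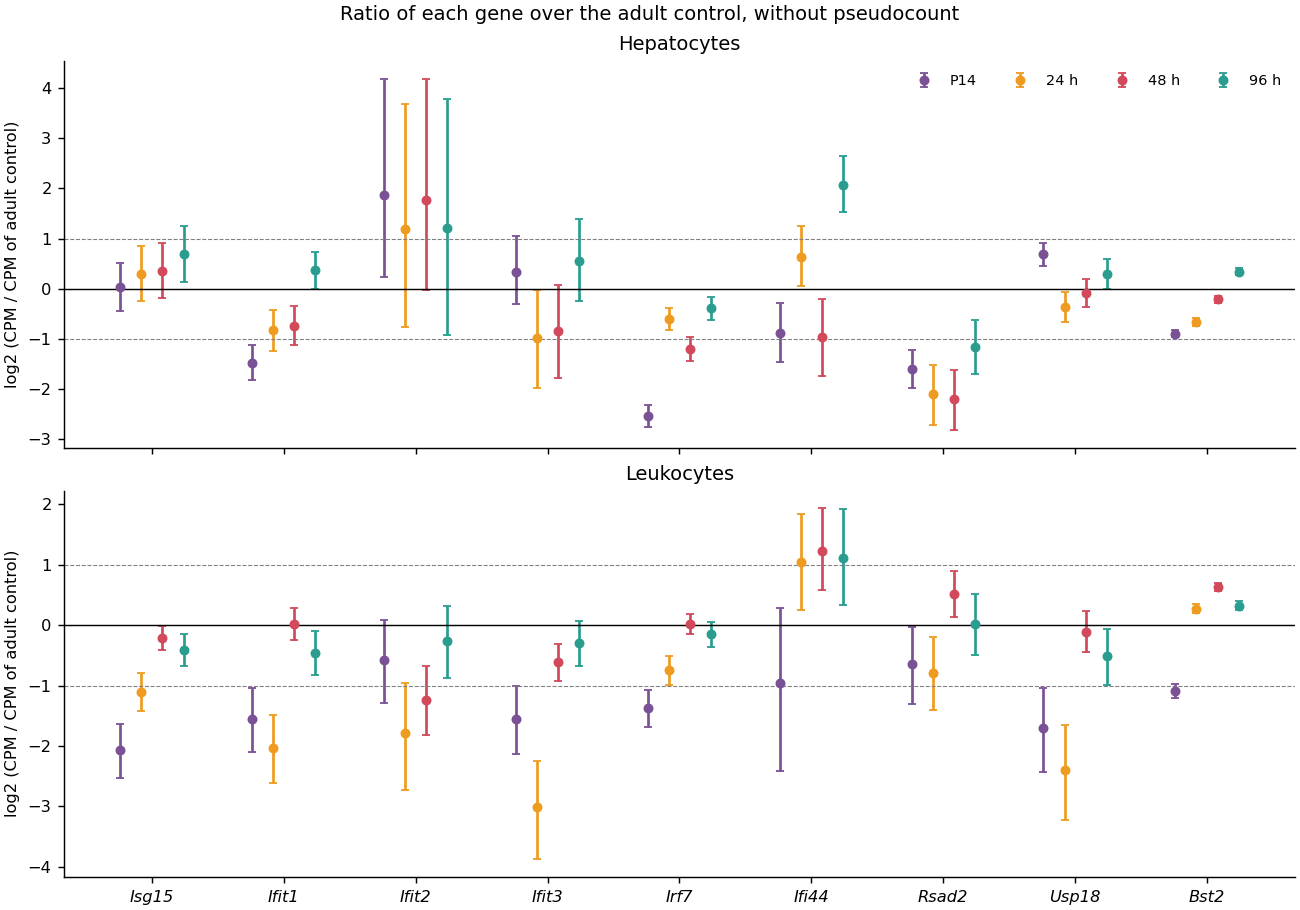
Log2 ratio of each gene over the adult control in hepatocytes (top) and leukocytes (bottom), without a pseudocount, for P14 and for 24 h, 48 h and 96 h after PHx; bars are exact 95% intervals for counting error and dashed lines mark 2-fold. In leukocytes Ifit3 at 24 h was lowest (-3.01), and in hepatocytes Ifi44 at 96 h was 2.07; the wide bars of Ifit2 in hepatocytes come from 3 UMIs in the control.

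By the 2-fold rule, 8 of the 9 genes passed the filter in P14 leukocytes and 6 were lower (Isg15, Ifit1, Ifit3, Irf7, Usp18 and Bst2), against 13.7% of 10811 genes; 0 were higher, against 12.5%. All 6 were above 5 CPM in both libraries. At 24 h all 9 passed and 5 were lower (Isg15, Ifit1, Ifit2, Ifit3 and Usp18), against 11.6%, with 0 higher against 6.86%; Ifit2, Ifit3 and Usp18 passed only through the control. Without the cells of at least 20 UMIs, Isg15 was no longer 2-fold lower at 24 h (-0.64, 1 CPM added). At 48 h, Ifi44 was higher (background 5.2%) and Ifit2 lower (11.5%), the former having passed only through 48 h and the latter only through the control, and neither was 2-fold apart without the cells of at least 20 UMIs (0.77 and -0.94). At 96 h none of the 9 was higher (4.72%) or lower (6.03%). The median log2 ratio of the 9 genes was -1.35, -1.07, 0.0138 and -0.25 in P14 and at the 3 times after PHx, and that of all tested genes 0.0061, -0.24, -0.17 and -0.03.

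The leukocytes pooled cell types whose mix differed between libraries. Clustered without these genes and the pathway lists, and named by markers, they held 1446 T or NK-like, 915 B-like, 496 neutrophil-like and 291 plasmacytoid dendritic-like cells, besides smaller classes. T or NK-like cells were 52.5% of adult control leukocytes and 28.6%, 37.7%, 38.9% and 27.8% in P14 and at the 3 times after PHx. Neutrophil-like cells were 5.02% in the control, 20.6% in P14, and 26.01%, 14.0% and 11.7% after PHx. Several clusters belonged nearly to 1 library, so names may cover different cells: of the control's 512 T or NK-like cells 224 lay in cluster 20 and 141 in cluster 22, where the other libraries had 4 and 1 cells, of its 50 plasmacytoid dendritic-like cells 44 lay in cluster 19, which held no other cells, and of its 173 B-like cells 145 lay in cluster 21. Of the 154 neutrophil-like cells at 24 h, 139 lay in cluster 2, where the control had 2, and 283 of the 289 B-like cells at 96 h lay in cluster 18. In P14, 43 of the 88 B-like cells lay in a cluster led by Igll1 and Vpreb1. A cluster of 200 cells led by Hbb-bt, 148 of them from the control, stayed unnamed. Its leading genes included Trat1 and Ly6c1. In a finer clustering a cluster led by Ly6c1 and Trat1, with 122 control cells, was named T or NK-like. In a coarser clustering a cluster led by Hbb-bs, with 164 control cells, had that name too. How many cells these clusters share was not counted. Levels and shares of the control's T or NK-like cells may thus depend on this naming.

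Among classes with at least 20 cells in a library, Bst2 and Irf7 were highest in plasmacytoid dendritic-like cells in the control and at 24, 48 and 96 h, apart from every other class. Their Bst2 level was 3462 CPM in P14 (9 cells) and 4281 in the control, and after PHx 4150 (24 h), 4807 (48 h) and 4665 (96 h), against 57.6 to 212 CPM in B-like and 81.6 to 184 CPM in T or NK-like cells. These cells gave 58.8% of the control's leukocyte Bst2 UMIs and 77.0%, 77.5% and 66.6% at 24, 48 and 96 h, while their share of leukocytes was 5.12%, 11.5%, 10.46% and 6.32%. Within them Bst2 differed little from the control, with log2 ratios of -0.04 (-0.14 to 0.05), 0.17 (0.09 to 0.24) and 0.12 (0.03 to 0.22). Ratios within classes have 1 CPM added, and their intervals are those of the ratio without it. Irf7 was 327 CPM in the control and 224, 298 and 319 CPM at 24, 48 and 96 h in these cells, and at most 87.3 CPM in T or NK-like, B-like and neutrophil-like cells of those libraries. Ifi44 was 18.6, 58.6, 55.8 and 72.1 CPM there, and these cells gave 80.0% of all leukocyte Ifi44 UMIs at 24 h against 32.0% in the control. In T or NK-like cells its log2 ratios at 24, 48 and 96 h were 0.12, -1.55 and -0.04, from 4, 1 and 4 UMIs against 10. B-like cells had 0 to 3 Ifi44 UMIs per library and neutrophil-like cells 0. The cluster led by Hbb-bt had 33.8 against 3.34 CPM at 48 h, from 7 and 3 UMIs. In contrast, the levels of Ifit1 and Ifit3 in plasmacytoid dendritic-like cells were at most 2.32 and 4.64 CPM, from 0 to 3 UMIs per library.

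Among classes with at least 20 cells, Rsad2 was highest in neutrophil-like cells in all 5 libraries, at 29.6 CPM in P14 and 72.7 in the control, and after PHx 21.2 (24 h), 69.6 (48 h) and 96.7 (96 h). All 11 Rsad2 UMIs of the P14 neutrophil-like cells came from 1 cell, so their rank in P14 rests on that cell. In cells named T or NK-like or B-like Rsad2 was at most 6.73 CPM. In the unnamed cluster led by Hbb-bt its interval overlapped that of neutrophil-like cells in the control and at 48 h. That cluster may hold cells that another clustering names T or NK-like. The neutrophil-like cells gave 68.7% of leukocyte Rsad2 UMIs at 48 h and 17.4% in the control. Bst2 was 378 CPM in neutrophil-like cells of the control and 21.5 to 87.0 CPM in those of the other 4 libraries, and 31 of the control's 78 UMIs came from 1 cell.

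The low sum of 8 at 24 h was found in T or NK-like and in neutrophil-like cells. In T or NK-like cells it was 87.6 CPM in P14 and 230 in the control, and after PHx 60.5 (24 h), 158 (48 h) and 144 (96 h), with a log2 ratio (1 CPM added) of -1.91 (-2.29 to -1.58) at 24 h. In neutrophil-like cells it was 283, 315, 114, 379 and 377 CPM, with -1.46 (-1.92 to -1.004) at 24 h. The P14 level of neutrophil-like cells rests on 1 cell, which gave 79 of the 105 UMIs. In B-like and plasmacytoid dendritic-like cells the intervals at 24 h, -0.95 to 0.16 and -0.58 to 0.04, included 0. The B-like cells of P14 stood at 12.4 CPM against 105 in the control (-2.98, -3.86 to -2.36). At 48 h Isg15 was 96.8 CPM in plasmacytoid dendritic-like cells against 27.9 in the control (1.76, 0.94 to 2.79), and Ifi44 55.8 against 18.6 CPM (1.54, 0.52 to 2.86). The unnamed cluster led by Hbb-bt, with 148 of its 200 cells in the adult control, had 338 CPM of the 8 genes there.

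**Figure D5:**
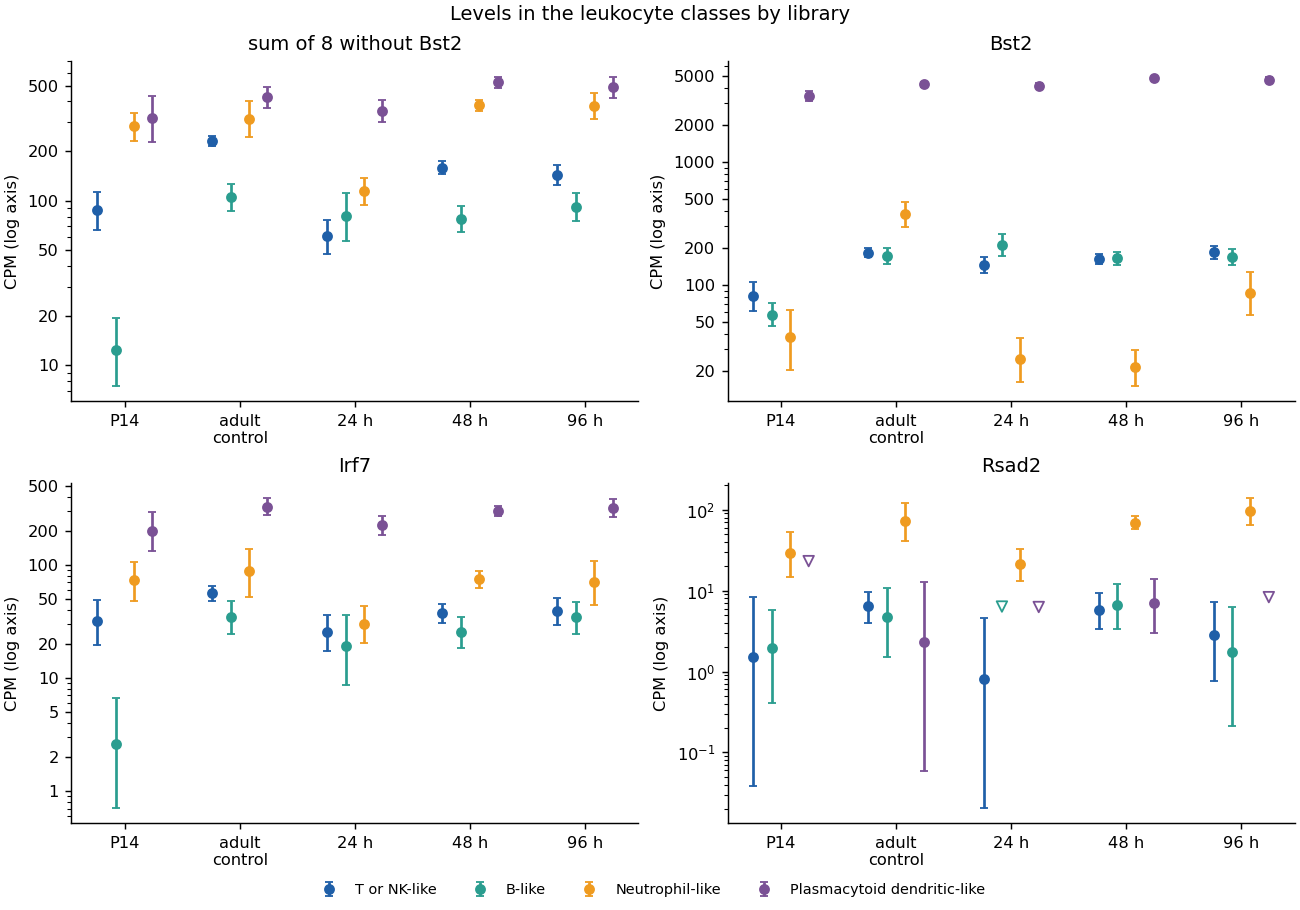
Levels (CPM, log axis) of the sum of 8 genes, Bst2, Irf7 and Rsad2 in 4 leukocyte classes by library; bars are exact 95% Poisson intervals and open triangles mark classes with 0 UMIs, drawn at the level that 3 UMIs would give. Outside P14, where they numbered 9, plasmacytoid dendritic-like cells had the highest Bst2 and Irf7 of the 4, and neutrophil-like cells the highest Rsad2.

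Leukocytes with at least 20 UMIs of the 8 genes numbered 26 of 3651: 2 in P14 and 9 in the control, and after PHx 0 (24 h), 11 (48 h) and 4 (96 h). Of these, 9 were neutrophil-like, 5 T or NK-like, 4 in the cluster led by Hbb-bt, 3 plasmacytoid dendritic-like and 0 of 915 B-like, for which a count of 0 allows 3 cells.

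The genes above and beside these targets in the pathway were counted by the same 2-fold rule, as log2 ratios with 1 CPM added, and the share of all tested genes follows in brackets after a count. A gene that passed the filter only through the group where it is high is more readily counted as different, so the counts are descriptions. Of the 10 listed ligands, Ifng was the only one with a UMI in leukocytes, with 28 UMIs in P14 and 159 in the control, against 85, 143 and 54 in the PHx libraries in order of time. The listed type I and III ligands had no UMI in leukocytes of any library, and Ifnk had 2 UMIs in P14 hepatocytes and 1 at 96 h. Ligand genes outside the list were not counted, and at these depths low expression was not detectable. Ifng in leukocytes was 24.8 CPM in the control and 8.00 in P14 (-1.52).

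Of 12 receptor and signalling genes, 10 passed in hepatocytes. Ifngr1, the interferon gamma receptor chain, was 29.8 CPM in P14 against 11.6 in the control (1.29), and Irf9, a DNA-binding partner of Stat2, 9.72 against 32.97 (-1.66); the all-gene shares in P14 were 7.89% higher and 13.8% lower. At 24, 48 and 96 h none was 2-fold apart. Of 13 sensors, 8 passed in hepatocytes. Zbp1, a sensor of Z-form nucleic acids, was 20.1 CPM at 24 h and 16.5 at 48 h against 5.63 in the control (1.67 and 1.40), and Mavs, the adaptor of RNA sensing, 25.9 CPM in P14 and 35.4 at 48 h against 87.7 (-1.72 and -1.28). Myd88, Irf5 and Dhx58 were also lower in P14 hepatocytes, which made 4 of 8 (13.8%). In leukocytes 11 sensors passed, 4 were lower in P14 (Ifih1, Tlr7, Zbp1 and Mavs; 13.7%), and Mavs alone was lower at 24 h (11.6%) and 48 h (11.5%).

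Of 35 other type I targets in the matrices, 15 passed in hepatocytes. In P14, 8 were lower (13.8%) and 0 higher (7.89%), with Oasl1 (-2.39), Rtp4 (-2.16) and Xaf1 (-1.98) first. At 24 h Rtp4 and Xaf1 were lower (7.13%), at 48 h none was 2-fold apart, and at 96 h Ifi27 (150 against 45.7 CPM, 1.69) and Samd9l (1.04) were higher (4.07%). In leukocytes 9 of 31 were lower in P14 (13.7%). At 24 h 4 of 32 were lower (11.6%), among them Ifit1bl1 (-2.38) and Ifit3b (-1.93), while 3 were higher (6.86%), counts near the shares of all genes, with Ifitm3, which blocks viral entry, at 1248 against 361 CPM (1.79) and Oasl2 at 33.2 against 14.8 (1.11). At 48 h 5 of 33 were higher (5.2%) and Ifit1bl1 was lower (11.5%), and at 96 h Ifitm3, Oasl2 and Ifi204 were higher (4.72%) and 0 of 32 lower (6.03%).

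Of 19 interferon gamma targets, 13 passed in hepatocytes and 18 in leukocytes. Socs1, the feedback inhibitor of the Jak kinases, was lower in all 4 comparisons of both classes: in hepatocytes it was 9.99 CPM in the control and 0.0929, 0.308, 0.480 and 0.447 CPM in P14 and at the 3 times after PHx, and in leukocytes 94.3 against 25.7, 32.5, 42.9 and 23.2 CPM. Irf1, a transcription factor induced by interferon gamma, was 20.7 CPM in control hepatocytes and 7.56, 7.38 and 6.14 CPM in P14 and at 24 h and 48 h. In hepatocytes 4 were lower in P14 (13.8%), then 3 after 24 h (7.13%), 2 after 48 h (7.63%) and only Socs1 after 96 h (1.88%). In leukocytes 10 were lower in P14 (13.7%) and 10 at 24 h (11.6%), with Iigp1 first at both (22.0 and 40.6 against 129 CPM), and 3 were lower at 48 h (11.5%) and at 96 h (6.03%). Ciita, the regulator of class II genes, was the 1 target of 18 that was higher (4.72%), at 96 h (53.7 against 23.7 CPM), a count near the share of all genes. B-like cells were 43.5% of leukocytes at 96 h and 17.7% in the control, and the part of the class mix was not tested.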

How the data were processed

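The 5 10x v3 libraries were analysed as raw UMI counts per gene and barcode, which the authors deposited as unfiltered matrices. Per the submitters' processing notes, reads were handled with bcl2fastq, Cell Ranger and Seurat 3.1 on mm10, and the file header gives software version 3.0.2. The 9 genes, the pathway lists and the classes were chosen with earlier results of these data known. The limit of 20 UMIs, the sum without Bst2, the scaling within libraries before clustering, a second round of cluster naming and the non-member genes shown for single cells were chosen after seeing the data.

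UMIs were summed per library and class and divided by the class total without the 13 mitochondrial genes (CPM). Free RNA was read from the barcodes ranked 20001 to 60000. Intervals are exact (Poisson for levels, Clopper-Pearson for shares and for ratios conditional on the sum) at 95%. Leukocytes were clustered by the Leiden method (resolution 1.0, 15 neighbours, 30 components; scanpy 1.11.5) with numpy 2.4.6 and scipy 1.17.1; TMM factors came from edgeR 4.0.16, used for scaling only. No doublet caller was run, and leaving out the deepest 8% of cells was an alternative. Named genes were the 9 and, per list, the genes furthest from the control. The ratio script was tested on simulated data with known fold changes. A gene of the receptor and signalling list is not reported here.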

Additional observations from a re-analysis of the deposited data

Results flagged for a closer look

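Where a gene reached 5 CPM in one of the libraries compared, in hepatocytes and in leukocytes, 7 pairs of ratios had opposite signs in hepatocytes and leukocytes with both intervals clear of 0. Pairs that missed the filter or had an interval that included 0 are left out, such as Ifi44 at 48 h, which was under 5 CPM in hepatocytes. Each class is 1 library per group, and the difference between the classes was not tested. Log2 ratios here have 1 CPM added. Bst2, the virion tether, was lower in hepatocytes and higher in leukocytes at 24 h (-0.65 and 0.27) and at 48 h (-0.21 and 0.63). Plasmacytoid dendritic-like cells, the highest in Bst2, were 5.12% of leukocytes in the control, 11.5% at 24 h and 10.46% at 48 h. Within these cells the Bst2 ratios at 24 h and 48 h were -0.04 and 0.17. They were -0.34 and -0.17 in T or NK-like, 0.29 and -0.07 in B-like and -3.85 and -4.08 in neutrophil-like cells. The part of the class mix in the Bst2 ratios was not tested. Rsad2 was likewise lower in hepatocytes and higher in leukocytes at 48 h (-1.68 and 0.48), but 77 of the 97 control hepatocyte UMIs came from 1 cell. Without the cells rich in these genes the hepatocyte ratio was 0.0460, no longer below the control. Usp18 was higher in hepatocytes and lower in leukocytes in P14 (0.64 and -1.56) and at 96 h (0.28 and -0.49). At 96 h the same held for Isg15 (0.55 and -0.41) and Ifit1 (0.33 and -0.44). In hepatocytes the lower ends of the 96 h intervals, without the added CPM, were 0.0012 for Ifit1 and 0.0040 for Usp18. Single cells carried part of these counts: 1 control leukocyte held 48 of 368 Isg15 UMIs, and 1 leukocyte at 96 h held 23 of 93 Ifit1 UMIs. Among hepatocytes, 1 control cell held 34 of 114 Ifit1 UMIs, and 1 cell at 96 h held 33 of 148. With the richest cell of each library left out, leukocyte Isg15 was 40.9 CPM at 96 h and 49.98 in the control. Leukocyte Ifit1 was then 16.94 and 27.96 CPM, and hepatocyte Ifit1 8.557 and 6.007 CPM. Whether the Ifit1 pair would still have both intervals clear of 0 without such cells was not tested.

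Barcodes that met neither class rule were used in no comparison, yet some held at least 20 UMIs of the 8 genes without Bst2. There were 9 of 3670 barcodes with at least 1000 UMIs in P14 (0.245%), 9 of 9229 at 24 h (0.0975%), 11 of 3130 at 48 h (0.351%), 10 of 18072 at 96 h (0.0553%) and 26 of 66648 in the adult control (0.0390%). By count the control had the most and by share the fewest. Its empty droplets held 1328 UMIs on average, above the limit of 1000, so the shares have different denominators and no order is read from them.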

How the results depend on the processing

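No paired analysis was possible because each group is 1 library. Of 120 values for the summed 9 genes and for the counts of 2-fold genes under the alternatives, 72 stayed within the counting interval or 1.5 times and 48 moved. The summed ratio changed sign under 4 of 12 alternatives in leukocytes at 24 h, 2 at 48 h and 2 at 96 h, where the main ratio was under 2-fold, and under 0 in the other comparisons. Log2 ratios of the sum have 1 CPM added. For hepatocytes of P14 (main -0.85) they were -0.76 with mitochondrial UMIs in the total, -0.51 with TMM, -1.19 in cells of 10 to 20% mitochondrial UMIs and -0.71 without Bst2. At 24 h (-0.62) the last 2 gave -0.87 and -0.53. At 48 h (-0.33) TMM gave -0.24 and the last 2 -0.56 and -0.73, and at 96 h (0.29) the last 2 gave 0.0305 and 0.14.

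For leukocytes of P14 (-1.20) the ratio was -1.39 with free RNA subtracted, -0.57 as a mean over cells, -0.87 without the deepest 8%, -0.65 at the control's class mix, -1.33 without the Hbb-bt cluster and -1.45 without Bst2. At 24 h (-0.07) it was 0.11 (TMM), -0.19 (free RNA), 0.17 (mean), 0.27 (deepest), -0.33 (mix), -1.17 (without Bst2) and 0.0206 (without rich cells). At 48 h (0.43) it was 0.60 (TMM), 0.26 (free RNA), 0.48 (mean), 0.68 (deepest), -0.0655 (mix) and -0.0791 (without Bst2). At 96 h (0.15) it was 0.0224 (free RNA), 0.31 (deepest), -0.14 (mix) and -0.25 (without Bst2).

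With a filter of 20 CPM, 388, 434, 410 and 183 genes were 2-fold higher in hepatocytes of P14, 24 h, 48 h and 96 h, and 419 and 97 lower at 24 h and 96 h. In leukocytes 793, 395, 318 and 237 were higher and 978, 742, 753 and 402 lower. Rsad2 in hepatocytes reversed without the rich cells, to 0.0489 at 24 h and 0.0460 at 48 h (main -1.62 and -1.68), changed sign at 96 h, to 0.34 (main -0.95), and fell under 2-fold in P14, to -0.68 (main -1.29). The other 2 sign changes of single genes without the rich cells were Isg15 in P14 hepatocytes (0.0192 to -0.32) and Ifit1 in leukocytes at 48 h (0.0138 to -0.0213). With free RNA subtracted, Ifit1 and Irf7 changed sign in leukocytes at 48 h (to -0.12 and -0.13 from 0.0138 and 0.0221). A pseudocount of 10 CPM brought 13 of the 20 2-fold values of the 9 genes under 2-fold, and leaving out rich cells 6 (Rsad2 in hepatocytes of P14, 24 h and 48 h, and in leukocytes Isg15 at 24 h and Ifit2 and Ifi44 at 48 h). With a floor of 3 counts and no pseudocount 0 were lost and 7 more were 2-fold: Ifit2 in hepatocytes in all 4 comparisons (1.19 to 1.87), Rsad2 in hepatocytes at 96 h (-1.15) and Ifi44 in leukocytes at 24 h (1.04) and 96 h (1.12). Depth limits the sparse genes: Ifit2 in control hepatocytes rests on 3 UMIs.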

Other observations

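Leukocytes were thinned to an equal depth of 1000 UMIs, and each gene was scored as detected or not in each cell. The mean of each cluster within a library was then subtracted. The genes whose detection followed the number of the 9 detected most closely from cell to cell were other interferon targets and sensors. Averaged over the 5 libraries, Pearson's r across cells was 0.211 for Slfn5, 0.153 for Rtp4, 0.127 for Zbp1 and 0.123 for Trim30a, out of 3856 genes compared. Of the 9, Ifit3 had the highest r with the number of the other 8 detected (0.271) and Ifi44 the lowest (0.0274). These values are weak, come from sparse detection in cells that share a library, and are given as a description.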
